A study of Homo sapiens with 8 samples.

Results

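The end of the long arm of chromosome 20, from 58 Mb onward on build hg19, was examined for RNA that was enriched over input after immunoprecipitation with an antibody against RBPMS. Its members are the listed peaks on chromosome 20 with a start of at least 58000000, on either strand. There were 1419 of them among 194003 peaks in 4 lists, with 332, 720, 162 and 205 in libraries 1, 2, 3 and 4. Within them, an interval of 88 kb around ZBTB46 on the minus strand held 79 peaks (29, 25, 14 and 11), and the rest of the end held 1340. Both the stretch and the interval were chosen by the log2 fold and p of these same peaks, so those values are given as a description and without a test.

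The cells were HUES6, a pluripotent line derived from a human embryo, wild-type, kept in FTDA medium and labelled as control. All samples share this line and this treatment, and UV light of 400 mJ/cm2 had crosslinked protein and RNA in them. The 4 eCLIP libraries received the RBPMS antibody and the 4 input libraries none. The inputs enter only through the authors' comparison of each immunoprecipitation with input. A knockout, a knockdown or an unrelated antibody was not among the samples analysed here, so the antibody's specificity could not be checked.

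RBPMS is an RNA-binding protein with a single RNA recognition motif. It binds as a dimer to RNA that holds pairs of CAC triplets and is best known as a regulator of alternative splicing in smooth muscle. In eCLIP, UV light joins protein to the RNA it touches, the protein is pulled down, and the joined RNA is sequenced beside input RNA, so that a peak reports RNA carried down with the protein. ZBTB46 encodes a transcription factor with a BTB domain and zinc fingers, best known as a marker of classical dendritic cells and their committed precursors. In RefSeq, on GRCh38.p14, the gene lies on the minus strand between the protein-coding genes SLC2A4RG and ABHD16B, and 17 of the 537 protein-coding genes of chromosome 20 follow it toward the end of the arm. That table also places the antisense RNAs ZBTB46-AS1 and ZBTB46-AS2 inside it. Since the table is on another build than the peaks, no peak was assigned to an exon, an intron or another gene.

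A peak was called enriched where the authors' deposited log2 fold reached 3, an 8-fold excess over input, and their −log10 p also reached 3. At the end, 127, 102, 34 and 59 peaks of libraries 1 to 4 were enriched. Library 1 thus had 38.3% of its peaks there enriched (Wilson 95% interval 33.2 to 43.6) and library 2 had 14.2% (11.8 to 16.9). Library 3 had 21.0% (15.4 to 27.9) and library 4 had 28.8% (23.0 to 35.3). Over all listed peaks the shares were 15.9%, 5.38%, 12.6% and 12.7%. The end lay above the peaks outside it in 4 of 4 libraries, by 14.6 ± 7.15 points (SD, n = 3 samples). Libraries 3 and 4 were counted as 1 sample in this and every mean ± SD, for the reason given with the processing. No label ties the libraries to different cultures, and the spread between them may therefore be technical only.

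The ZBTB46 interval carried the higher share within the end. Library 1 had 28 of 29 listed peaks enriched, or 96.6% (Wilson 95% interval 82.8 to 99.4). Library 2 had 15 of 25, or 60% (40.7 to 76.6), library 3 had 9 of 14, or 64.3% (38.8 to 83.7), and library 4 had 10 of 11, or 90.9% (62.3 to 98.4). In the rest of the end the shares were 32.7%, 12.5%, 16.9% and 25.3%. The difference, which the choice of the interval built in, was 56.0 ± 8.21 points (SD, n = 3). These intervals cover counting error only, and neighbouring peaks of 1 transcript are not independent.

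**Figure D1:**
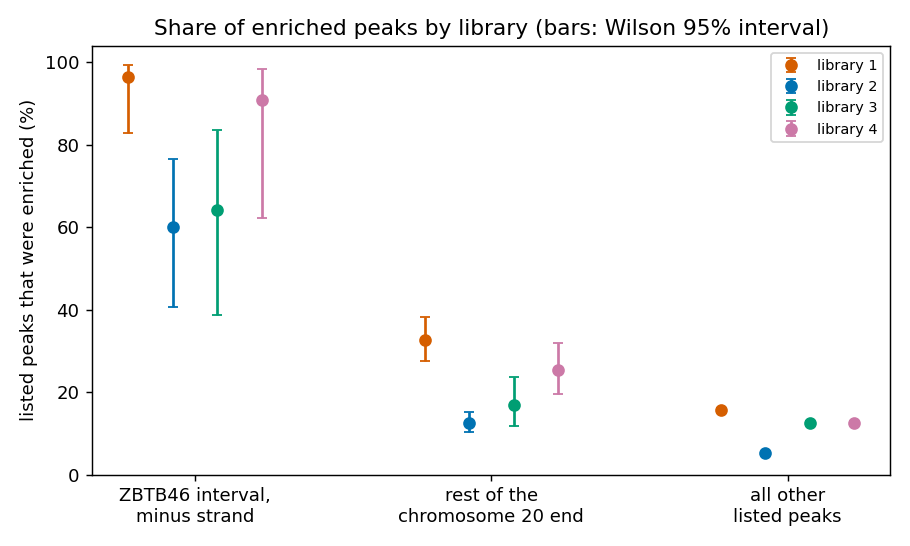
Share of listed peaks that were enriched (vertical axis, %) in the ZBTB46 interval, the rest of the chromosome 20 end and all other listed peaks, 1 point per library with its Wilson 95% interval. In each library the ZBTB46 share, from 60% to 96.6%, lies above that of the rest of the end, from 12.5% to 32.7%.

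Most of the enriched ZBTB46 peaks lay in 1 short block. Enriched peaks of all 4 libraries merged into a single region at chr20:62446504-62447562, minus strand, 1059 bases wide, which took in 20 of 28 enriched ZBTB46 peaks in library 1, 14 of 15 in library 2, 9 of 9 in library 3 and 10 of 10 in library 4. Every listed peak inside the block was enriched. The enriched peaks covered 98.8%, 100%, 78.6% and 84.4% of its bases in libraries 1 to 4. Among the 1699 regions of the series that recurred in 3 or more libraries, the block ranked 1 by width and 1 by the number of enriched peaks it joined, 53 in all. The next widest region of the end had 392 bases, and the most peaks joined elsewhere in the end were 12.

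Inside the block most enriched peaks touched another peak. In libraries 1 and 2 all 20 and all 14 enriched peaks met another listed peak of the same library at 1 edge or both, and in libraries 3 and 4 this held for 7 of 9 and 9 of 10. In the rest of the end such contact was found for 38.4%, 42.5%, 36.0% and 32.7% of the enriched peaks, and outside the end for 24.6%, 45.6%, 22.2% and 29.2%. The block is thus a chain of short peaks, with median widths of 55.5, 74.5, 91.0 and 96.5 bases, that the merging joined. When peaks had to share 20 bases to be joined, the interval held 6 regions enriched in at least 3 libraries in place of 1.

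Enrichment was high along the whole block in libraries 2, 3 and 4 and lower in library 1. In library 1 the 20 peaks had log2 folds of 4.16 to 5.66, with a median of 4.72. The 14 peaks of library 2 ran from 5.81 to 7.80 (median 6.81), the 9 of library 3 from 5.87 to 8.39 (median 7.70) and the 10 of library 4 from 6.54 to 8.57 (median 6.98). No peak of library 1 reached the lowest peak of library 2, 3 or 4, so the ranges of library 1 and the others did not overlap. The highest peak of libraries 1, 2 and 4 lay toward the lower coordinates, which is downstream on the minus strand: 62446506 to 62446582 in library 1, 62446582 to 62446662 in library 2 and 62446529 to 62446669 in library 4. In library 3 it lay at 62447102 to 62447237, in the other part of the block, so the place of the maximum was not shared by all libraries.

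**Figure D2:**
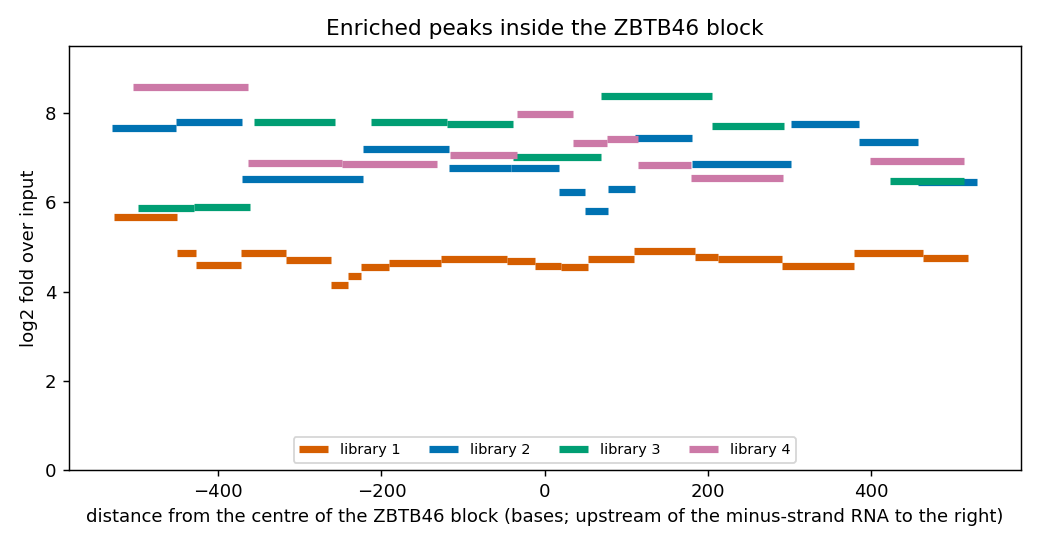
Log2 fold over input (vertical axis) of each enriched peak in the ZBTB46 block, drawn from its start to its end as the distance in bases from the centre of the block (horizontal axis), coloured by library. Library 1, at 4.16 to 5.66, lies below the other libraries along the whole block.

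Taking the highest peak per library, the block stood at 5.66, 7.80, 8.39 and 8.57, a mean of 7.31 ± 1.47 (SD, n = 3). Library 1 lay 2.48 below the mean of the other samples in log2. Over the 940 regions enriched in all 4 libraries the median of that difference was -0.30, and 24 regions, the block included, lay at or below -2.48. By the mean over 3 samples the block ranked 12 among those 940 regions, and without library 1 its mean was 8.14. Both values rest on the highest peak per library, and the block joined the most peaks, 53, of the 1699 recurrent regions. It thus had more peaks than any other region from which to take a highest value. With each library's enriched peaks averaged, its mean was 6.28 ± 1.37 (SD, n = 3), and no rank was taken by that measure.

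The read numbers behind these folds set library 1 apart in the input. The smallest whole read numbers that give a peak's deposited log2 fold were taken as its least reads. In library 1 the block's peaks rested on at least 96 to 819 immunoprecipitation reads and at least 13 to 92 input reads. In library 2 they rested on at least 206 to 794 immunoprecipitation reads, a range much like that of library 1, but on least input reads of 1 to 9. In libraries 3 and 4 the least immunoprecipitation reads were 28 to 158 and 78 to 261, over least input reads of 1 to 2 and 1 to 3. The p of all 19 peaks of libraries 3 and 4 and of 8 peaks of library 2 carried the value used where a read number is below 5, so their input held at most 4 reads. The folds of those peaks thus depend on very few input reads. The part of the input in the lower folds of library 1 was not tested. The depth ratio of input over immunoprecipitation was 3.18 in library 1 and 1.04, 2.12 and 1.46 in libraries 2 to 4. The median least input per peak of the block was 55.5 reads in library 1 and 4, 1 and 1 in the others.

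The block held a large part of the least immunoprecipitation reads of the enriched peaks of the end. Peaks that were not enriched are left out. Of the least immunoprecipitation reads summed over the enriched peaks of the end, 69.3%, 54.6%, 54.5% and 46.3% lay in the block in libraries 1 to 4, where 20 of 127, 14 of 102, 9 of 34 and 10 of 59 enriched peaks lay. Of the least input reads, the block took 69.7% in library 1 and 16.7%, 14.1% and 11.2% in libraries 2, 3 and 4. A read that spans the edge of adjoining peaks may be counted in both, and 3 enriched peaks of library 1 outside the block gave no read numbers. All block peaks of libraries 3 and 4 entered with minima. In the rest of the end, 23 of 25 and 43 of 49 enriched peaks of these libraries had unique read numbers. The block's input shares there rest on 10 and 12 least reads. The percentages are therefore neither estimates nor bounds of the block's share of reads. Whether the block lies in repeated or hard-to-map sequence was not tested.

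**Figure D3:**
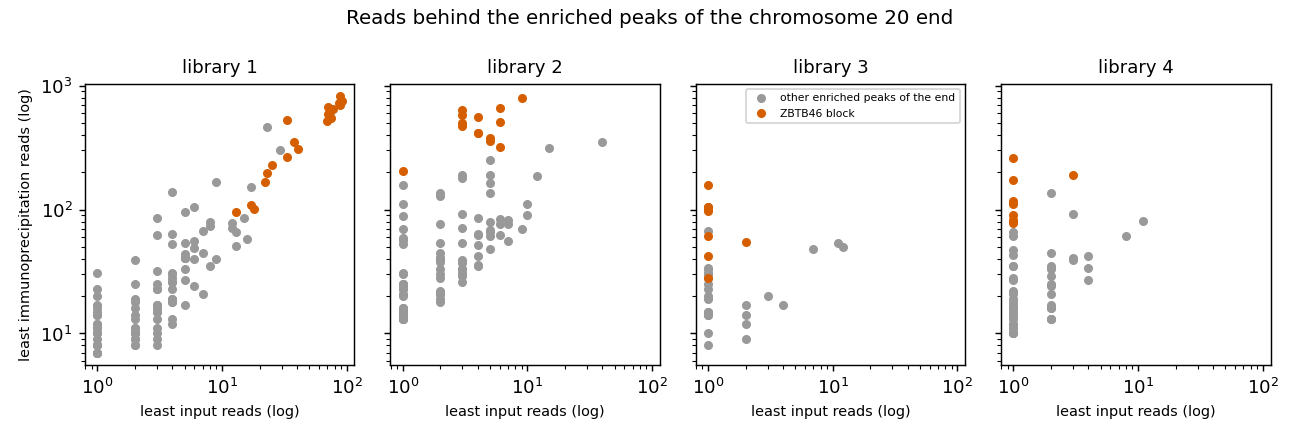
Least immunoprecipitation reads (vertical axis, log scale) against least input reads (horizontal axis, log scale) of each enriched peak of the chromosome 20 end, 1 panel per library, with the ZBTB46 block in orange. In library 1 the block has at least 13 to 92 input reads per peak, while in libraries 2, 3 and 4 it has least input reads of 1 to 9.

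Outside the block, ZBTB46 had few enriched peaks, and nearly all of them came from library 1. A cluster of 7 enriched peaks of library 1 lay at 62377877 to 62379439, a stretch of 1563 bases that lies 67064 bases downstream of the block near the lower limit of the interval. Their log2 folds were 3.99 to 5.67, on 7 to 26 immunoprecipitation reads over 1 to 4 input reads. Library 2 listed 3 peaks in the same stretch, of which 1 was enriched, at 3.76. Libraries 3 and 4 each listed 1 there, at 3.67 on 6 reads over 1 and at 2.54 on 4 reads over 1, and neither was enriched. A call with 1 input read needed 7 immunoprecipitation reads in library 1 but 13, 8 and 10 in libraries 2, 3 and 4, so a peak could be called on fewer reads in library 1. The part of this in the cluster was not tested. One further enriched peak of library 1, at 62449577 to 62449620, stood upstream of the block at 5.13.

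The plus strand of the same interval, to which the RNAs ZBTB46-AS1 and ZBTB46-AS2 belong in RefSeq, had 0 listed peaks in each of the 4 libraries. The lists hold only positions that the authors' caller kept, so this gives no limit on reads there. Listed peaks between the limits of the interval were therefore all on the strand of the gene. In the rest of the end, 41.9% to 50.5% of the listed peaks were on the plus strand. That set takes in both strands over a far longer stretch, while the ZBTB46 members were defined as minus strand. The contrast is therefore no test and shows nothing particular to ZBTB46.

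The nearest listed peaks outside the limits used to choose the members did not adjoin those limits. Inside the lower limit of the ZBTB46 interval, a library 2 peak that was not enriched started at 62375673. The cluster of library 1 followed from 62377877. The first listed peaks inside 58 Mb started between 58513774 and 59882305 and had log2 folds of 3.67, 1.65, 3.89 and 5.97 in libraries 1 to 4, and the last ones outside started between 57568809 and 57603800 at 3.25, 2.28, 2.67 and 1.13. On the minus strand, the nearest listed peaks below the ZBTB46 interval stood at 2.25, 0.87, 2.67 and 3.13, and the nearest above it at 3.99, 1.75, 2.67 and 2.13, the latter starting between 62572657 and 62573207.

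The width of the enriched peaks was not itself used to choose the interval. The peaks compared had, however, passed limits on the log2 fold and p, which had served to choose it. The median width in ZBTB46 was 55.5, 73.0, 91.0 and 96.5 bases in libraries 1 to 4, and in the rest of the end 67.0, 82.0, 78.0 and 85.0 bases. ZBTB46 peaks were narrower in libraries 1 and 2 and wider in libraries 3 and 4. The difference over samples was -2.75 ± 13.1 bases (SD, n = 3, exact two-sided sign-flip permutation p = 1). With 3 samples this p cannot go below 0.25, so the test could not have called a difference of any size.

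Across the whole end, 130 merged regions held an enriched peak, and 22 of them (16.9%) were enriched in at least 3 of 4 libraries. Over the whole series this share was 22.7%, so recurrence at the end was not above the background. Of the 22, 16 were enriched in all 4 libraries, 9 lay on the plus strand and 13 on the minus strand. ZBTB46 contributed 1 of the 22 and the rest of the end 21, with a median of their mean log2 fold of 4.83 and a range of 3.71 to 6.35. Among the other 108 regions, 49 were enriched in library 1 alone and 33 in library 2 alone, against 4 in library 4 alone and 0 in library 3 alone. Regions enriched in 1 library alone made up 86 of the 130, against 4537 of 7472 over the whole series. The series total is not divided by library here, so the counts per library have no background beside them. The 7 single-library regions of ZBTB46 all came from library 1.

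Listed and enriched peaks were both unevenly spread along the end. From 58 to 59 Mb no library had an enriched peak, but only 3, 5, 0 and 0 peaks were listed in libraries 1 to 4. From 59 to 60 Mb, with 9, 32, 6 and 6 listed, there was 1 recurrent region. From 60 to 61 Mb there were 8, with 120, 248, 60 and 70 peaks listed. From 61 to 62 Mb there were 2, with 46, 143, 35 and 49 listed. From 62 to 63 Mb, with 154, 292, 61 and 80 listed, there were 11 recurrent regions including the ZBTB46 block. The last listed peak ended at 62916280. The enriched share of listed peaks was 34.2%, 15.3%, 16.7% and 27.1% from 60 to 61 Mb. It was 19.6%, 6.29%, 2.86% and 18.4% from 61 to 62 Mb. From 62 to 63 Mb it was 47.4%, 17.5%, 32.8% and 35.0%.

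**Figure D4:**
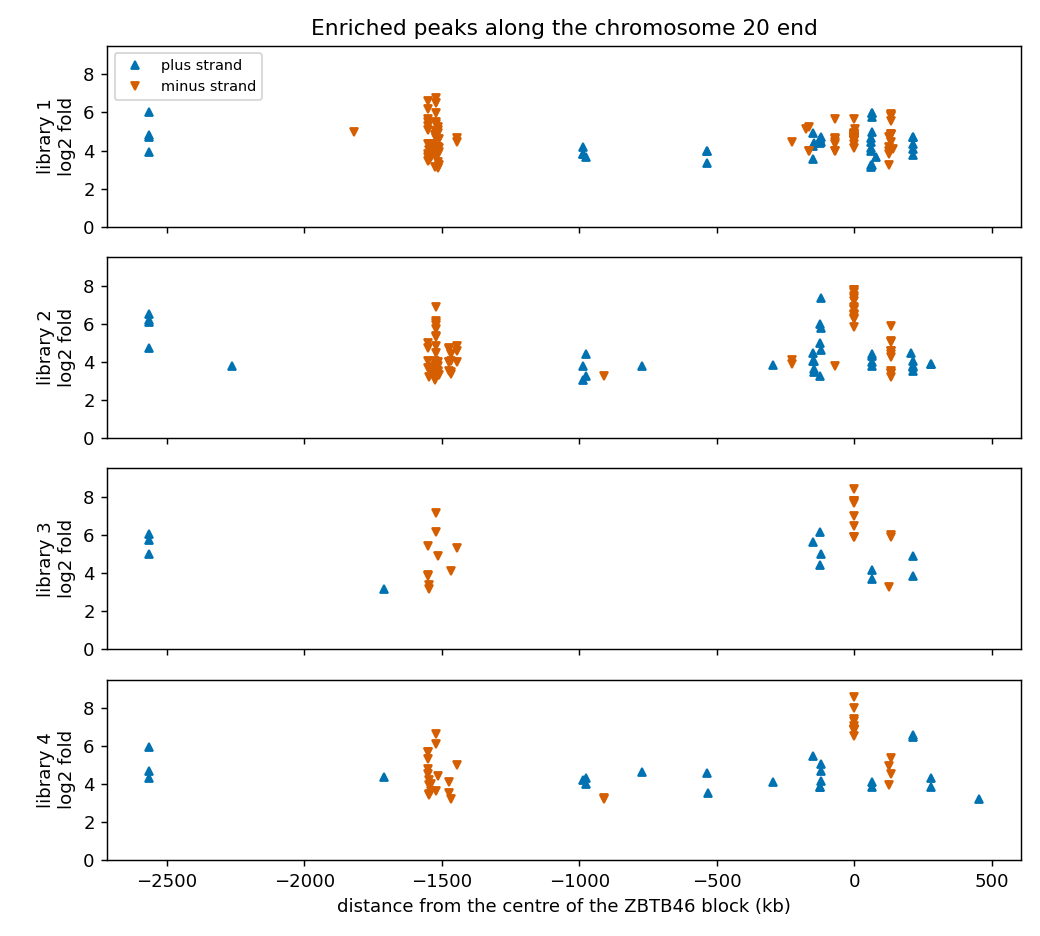
Log2 fold over input (vertical axis) of the enriched peaks of the chromosome 20 end by distance in kb from the centre of the ZBTB46 block (horizontal axis), 1 panel per library, with triangles pointing up for the plus strand and down for the minus strand. Minus-strand peaks gather between -1551 and -1446 kb, and the block itself stands highest in libraries 2, 3 and 4.

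The stretch with the most recurrent regions was not ZBTB46 but chr20:60896075-61001207 on the minus strand, found by joining recurrent regions of 1 strand at most 50 kb apart after the data were seen. It spans 105133 bases and held 9 recurrent regions, 7 of them enriched in all 4 libraries. Of its listed peaks, 42 of 62, 39 of 88, 10 of 38 and 19 of 40 were enriched in libraries 1 to 4. Where ZBTB46 had 1 chain of touching peaks, this stretch had separate, shorter regions, the widest of 392 bases. A plus-strand stretch at chr20:62299248-62325349 held 4 recurrent regions, and all 4 were enriched in all 4 libraries.

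The regions of the rest of the end with the highest folds lay below the block in libraries 2, 3 and 4, but not in library 1. The region chr20:60924798-60924970, minus strand, had log2 folds of 5.995, 5.94, 7.15 and 6.64 in libraries 1 to 4 (mean 6.28 ± 0.54, SD, n = 3). Its highest peaks rested on at least 462 reads over 23 in library 1, 59 over 1 in library 2, 67 over 1 in library 3 and 137 over 2 in library 4, so here too library 1 had by far the most input reads. Directly downstream of it, chr20:60924659-60924763 on the same strand had 6.79, 6.14, 6.13 and 6.10 (mean 6.35 ± 0.38), with library 1 the highest. The region chr20:60896075-60896413, minus strand, had 6.62, 4.999, 5.41 and 5.67 (mean 5.72 ± 0.83), again highest in library 1.

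On the plus strand, chr20:59882232-59882556 had 6.04, 6.52, 6.04 and 5.97 (mean 6.19 ± 0.29). It was the only recurrent region from 59 to 60 Mb and had 3 enriched peaks in each library. The 3 neighbouring regions at 62324662 to 62325349 were less even. Among them chr20:62325093-62325349 had 4.70, 7.36, 4.99 and 4.71 (mean 5.63 ± 1.49), where library 2 alone was high, and without library 2 the mean was 4.77. Its neighbour chr20:62324877-62325007 had 4.57, 4.97, 6.17 and 5.03 (mean 5.05 ± 0.52), where library 3 was high. The region chr20:62299248-62299566 of the same strand had 4.93, 4.02, 5.61 and 5.48 (mean 4.83 ± 0.77).

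Beyond the block toward the chromosome end, chr20:62579864-62580123 on the minus strand had 5.93, 5.89, 5.99 and 5.35 (mean 5.83 ± 0.14). The small SD rests on the averaging of libraries 3 and 4, of which library 4 was the lowest of all. Next to it, chr20:62580211-62580398 had 5.87, 5.09 and 4.54 in libraries 1, 2 and 4 and no listed peak in library 3 (mean 5.17 ± 0.67). On the plus strand, chr20:62661053-62661433 had 4.70, 4.06, 4.89 and 6.59 (mean 4.83 ± 0.85), with library 4 apart from the others. Of the 11 named regions, library 1 was the lowest in 3, of which the block is 1 and the other 2 lie in the plus-strand group at 62324662 to 62325349.

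**Figure D5:**
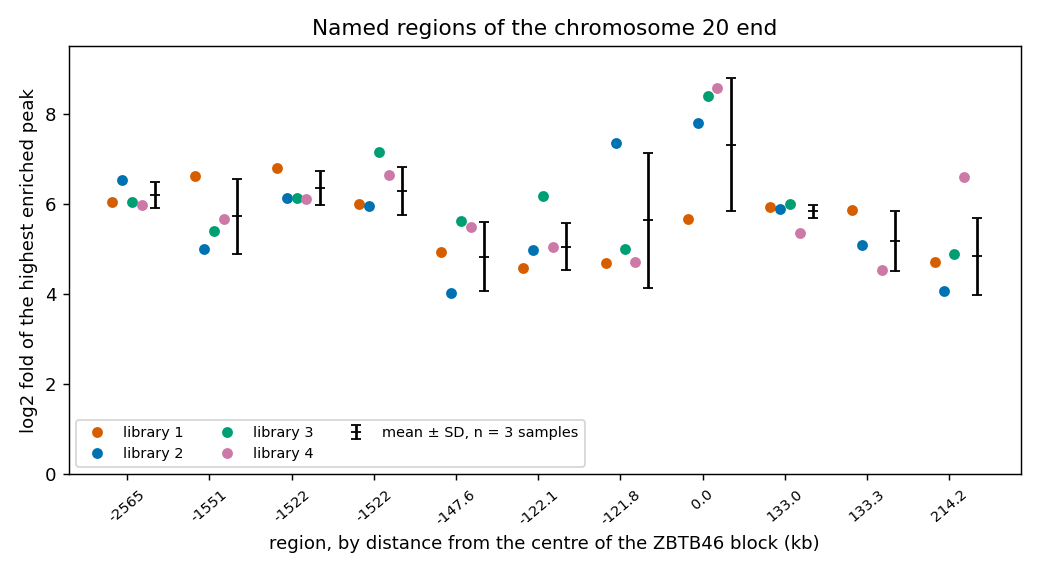
Log2 fold of the highest enriched peak per library (vertical axis) in the 11 named regions, ordered by distance in kb from the centre of the ZBTB46 block (horizontal axis), with the mean ± SD over 3 samples in black. Library 1 is lowest at the block, at 5.66, and highest at 60896075 and 60924659, at 6.62 and 6.79.

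Set beside the last 4916280 bases of listed positions on each of the 24 chromosomes, the chromosome 20 end ranked 6 by the mean share of enriched peaks, 25.8% ± 12.1 (SD, n = 3). Above it were chromosome 3 with 45.0%, chromosome 13 with 38.8%, chromosome 18 with 30.8%, chromosome 7 with 30.5% and chromosome 11 with 26.3%. Chromosome 16 came next below, with 23.3%. By recurrent regions chromosome 20, with 22, shared rank 7 with chromosome 2, and chromosomes 3 and 7 had 34 each. No test was made of these orders, since the stretch was proposed for its enrichment.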

How the data were processed

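Each eCLIP library has 1 peak list, which has no header line. Its build, hg19, comes from the submitters' processing notes. Each list gives the authors' deposited −log10 p and deposited log2 fold of immunoprecipitation over input per peak. There is 1 list per library, and none pools libraries. The aligner, the peak caller and the matching of inputs to lists were not given in the sources used here. The p stops at 15.66 or at 400, and peaks at those values have no order.

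Enriched peaks (log2 at least 3, −log10 p at least 3) that shared at least 1 base on 1 strand were merged over libraries, and a region enriched in at least 3 of 4 libraries is called recurrent. A region's fold in a library is that of its highest enriched peak. Read numbers were worked back from the deposited values. The fold, 2 to the power of the log2 fold, was taken as a ratio of whole numbers times the depth ratio of input over immunoprecipitation (relative tolerance 1e-08). The depth ratio was the one, among those tried, that recovered the most peaks, so the recovery is partly fitted. Below 5 reads the p was matched to a binomial test that assumes large libraries. From 5 reads up it was matched to a continuity-corrected chi-square (relative tolerance 0.003). This gave unique numbers for 90.5% to 97.1% of peaks with log2 above 0 and p below the ceiling, with a median of 3 or 4 immunoprecipitation reads. At p of 15.66, all peaks of the 4 lists reduced to a read number below 5. The depth of each library is unknown.

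Libraries 3 and 4 were counted as 1 sample. Over 300 peaks paired at 80% overlap with 40 to 99 reads together, their immunoprecipitation reads differed by less than the sampling noise (chi-square 0.90 per degree of freedom, p = 0.888), and the other 5 pairs gave 3.02 to 5.27. With deeper peaks included it was 3.52, against 6.68 to 14.9, so the deepest peaks did differ. The limit of 99 reads was set after the value over all depths had been seen.

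The named regions are the recurrent ZBTB46 region enriched in all 4 libraries and the 10 recurrent regions of the rest of the end with the highest mean log2 over libraries. The members, lists and thresholds were chosen with earlier results of these data known. The steps for merging and for working back read numbers were tried on simulated data, which checks the steps only. Simulated data cannot show whether the deposited p and fold follow the assumed tests and depth ratio. The read numbers of the block were therefore not tested in this way. Python 3.11.15, pandas 2.3.3, numpy 2.4.6 and scipy 1.17.1 were used. Alternatives were a stricter p, a looser fold, other library minimums, 20 shared bases, a start at 60 Mb, and each library left out.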

Additional observations from a re-analysis of the deposited data

Results flagged for a closer look

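With the 4 libraries taken singly, 25 quantities of the chromosome 20 end were compared by the distance of the highest or lowest library from its nearest neighbour. In 4 of them the gap, as a share of the range, was above Dixon's 95% critical value for 4 values, which chance passes in about 1 of 20 groups of independent values. Libraries 3 and 4 are counted as 1 sample elsewhere, the quantities overlap and the folds had served to choose the members, so these are descriptions and not tests. At chr20:60924659-60924763 library 1 had a log2 fold of 6.79, and the next was 6.14. At chr20:59882232-59882556 library 2 had 6.52 and the next 6.04. At chr20:62579864-62580123 library 4 had 5.35 and the next 5.89. At chr20:62325093-62325349 library 2 had 7.36 and the next 4.99, on at least 157 immunoprecipitation reads over at least 1 input read. The ZBTB46 block was not among them, since libraries 2, 3 and 4 were themselves spread from 7.80 to 8.57.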

How the results depend on the processing

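No paired analysis was possible because only the eCLIP samples carry values, and the inputs enter as a denominator. The count of 22 recurrent regions at the end (1 in ZBTB46, 21 in the rest) became 44 (2 and 42) for at least 2 of 4 libraries and 43 (2 and 41) for at least 2 of 3 samples with libraries 3 and 4 joined. Leaving out a library in turn, with enrichment in 2 of those left, gave 30 to 43, with 2 in ZBTB46 throughout and 28 to 41 in the rest. It was 43 without library 3 and 36 without library 4. In these settings fewer libraries were asked for. With 20 shared bases to merge, ZBTB46 had 6. A start at 60 Mb, applied to the regions after the data were seen, left these counts within 1.5 times.

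The width difference of -2.75 bases turned to 1.62 without library 1 and 0.38 without library 2, within a range of -3 to 1.62 over libraries left out. The other values, on enriched peaks, shares and the median log2 difference, kept their direction under the alternatives run. They moved by less than 1 SD, or stayed within 1.5 times for counts. That log2 difference, ZBTB46 minus the rest of the end for enriched peaks, was 1.90 ± 1.47 (SD, n = 3). By library it was 0.20, 2.76, 2.81 and 2.67, so its SD is wide and 1 SD is a loose limit. The named regions at 59882232 and 62579864 fell to 5.58 and 5.06 when a library's enriched peaks were averaged. The ZBTB46 block fell from 7.31 to 6.28 by that measure, and the region at 60924659 then stood slightly above it, at 6.30. The block's lead in mean log2 fold over the other named regions thus depends on taking the highest peak per library. In libraries 2, 3 and 4 the folds of 8 of 14, 9 of 9 and 10 of 10 block peaks rest on at most 4 input reads, which limits their precision.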
